A study of Mus musculus with 12 samples.

Results

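Sox genes encode transcription factors that bind DNA through a high mobility group (HMG) box, a domain related to the one in the testis-determining factor Sry. They fall into groups by sequence. SoxF factors (*Sox7*, *Sox17*, and *Sox18*) are known for their roles in blood vessels, SoxC factors (*Sox4*, *Sox11*, and *Sox12*) for roles in progenitors of many tissues, the SoxE factor *Sox9* for cartilage, bile duct, and branching epithelia, and the SoxD factor *Sox13* for binding TCF proteins of the Wnt pathway. These 8 genes were chosen by name from the 38127 genes in the count files, which hold 19 genes named *Sox1* to *Sox30*, and all 8 passed the low count filter.

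Their levels were read in 12 bulk RNA-seq libraries of cells sorted from embryonic livers of C57BL/6 mice, 3 libraries per group, and every gate excluded Ter119+ and CD45+ cells. At E14.5 the groups were P2 cells (CD54-CD31-Kit+CD24+), CD31+ cells (CD54+CD31+), and the cells that the study calls CD324+, whose label is CD54+CD31-. The group at E18.5 was labelled CD54+CD31- as well. Replicates at E14.5 came from independent litters according to the study, and the number of embryos per library is not given in the sources used here. Total counts ranged from 40714017 to 64368883 per library.

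Cell type markers set the frame for these levels. The summed level of 10 endothelial markers was 9364 to 9973 CPM (counts scaled to a normalized library of 1000000) in CD31+ libraries and 40.4 to 68.6 CPM in CD324+ libraries, that of 8 hepatoblast markers 68650 to 78920 CPM in CD324+ libraries, and that of 8 erythroid progenitor markers 2947 to 3086 CPM in P2 libraries. Of 9 macrophage markers tested, 6 were lower in CD31+ than CD324+ libraries, including *Csf1r* (11.8 ± 3.41 against 45.7 ± 13.7 CPM, SD, n = 3 each), and 1 was higher, *Mrc1* (1416 ± 106 against 27.8 ± 9.15 CPM, SD, n = 3 each), which sinusoidal endothelium also expresses. Of all genes tested in that comparison, 34% were lower and 31.7% higher. P2 replicate 2 stood apart, with an endothelial sum of 391 CPM against 59.5 and 104 CPM in replicates 1 and 3. The E18.5 libraries went against their tissue label: 10 lung epithelium markers summed to 9941 to 21880 CPM, against 151 to 165 CPM in CD324+ libraries, where the defining marker *Nkx2-1* had 0 counts. Mesenchyme markers summed to 3997 to 4426 CPM there, against 125 to 245 CPM in CD324+ libraries. E18.5 replicate 1 stood apart, with a hepatoblast sum of 5415 CPM against 35560 and 45790 CPM in the others.

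The stretch of coding sequence below encodes the start of the HMG box in each member and is shown because it is what makes these genes a family. It was taken from GENCODE vM21 transcripts on GRCm38, runs 5′ to 3′ over 60 bases, and capitals mark the 26 bases that are identical in all 8 members. SoxC genes come first, then SoxF, SoxE, and SoxD.
Sox4: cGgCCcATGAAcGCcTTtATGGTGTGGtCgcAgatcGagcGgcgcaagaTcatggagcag
Sox11: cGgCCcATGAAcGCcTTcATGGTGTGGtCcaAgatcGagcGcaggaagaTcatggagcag
Sox12: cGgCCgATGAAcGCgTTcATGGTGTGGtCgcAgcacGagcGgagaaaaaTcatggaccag
Sox7: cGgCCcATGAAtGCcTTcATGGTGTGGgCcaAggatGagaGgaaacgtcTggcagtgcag
Sox17: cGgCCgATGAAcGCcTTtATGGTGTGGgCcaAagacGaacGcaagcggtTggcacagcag
Sox18: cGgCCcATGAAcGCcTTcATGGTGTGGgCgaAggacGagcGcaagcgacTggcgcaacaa
Sox9: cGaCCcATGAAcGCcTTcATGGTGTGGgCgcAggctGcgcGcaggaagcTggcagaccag
Sox13: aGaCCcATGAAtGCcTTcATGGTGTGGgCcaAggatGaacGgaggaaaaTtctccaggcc
These stretches lie at chr13:28952782-28952841 (*Sox4*), chr12:27342199-27342258 (*Sox11*), and chr2:152397516-152397575 (*Sox12*), all on the minus strand. Those of the SoxF genes lie at chr14:63943894-63943953 on the plus strand (*Sox7*), chr1:4493140-4493199 on the minus strand (*Sox17*), and chr2:181671222-181671281 on the minus strand (*Sox18*). *Sox9* has its stretch at chr11:112782903-112782962 on the plus strand and *Sox13* at chr1:133385506-133385565 on the minus strand. Each lies in a coding exon. The exon is the only one of the annotated transcripts of *Sox4* and *Sox11*, the first in those of *Sox7*, *Sox9*, *Sox12*, and *Sox18*, exon 4 of 5 in *Sox17*, and exon 11 of 13 in *Sox13*.

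Over the 210 bases that encode 70 residues of the box, *Sox4* and *Sox11* were identical at 91.0% of positions, *Sox4* and *Sox12* at 85.7%, and *Sox11* and *Sox12* at 84.8%. Among SoxF genes, *Sox17* and *Sox18* shared 84.3%, *Sox7* and *Sox17* 82.4%, and *Sox7* and *Sox18* 78.1%. *Sox13* was the most distant member, with 60.5% to 65.2% identity to the other 7. The longest run of identical bases between any pair was 48 bases, in *Sox4* and *Sox11*, and how reads with several alignments were counted is not given in the sources used here. Exons of *Sox4* and *Sox17* also share 2616 and 804 bases with noncoding genes on the opposite strand, *Gm26735* and *Gm37587*, which are not among the counted genes. Reads of these overlaps cannot be assigned to a strand here, because the strand setting of the counting is not given either.

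CD31+ cells had the highest level of all 3 SoxF genes and of *Sox11*. Of the 8 members, 5 were higher in CD31+ than in CD324+ cells, where 31.7% of the 15461 genes tested were higher, and 2 were lower, where 34% of all genes were lower. The median log2 fold change was 4.72 over the 8 members and -0.03 over all genes tested. The members were chosen with earlier results of these data known, and CD31+ cells were sorted on an endothelial marker. Counts and medians over the members, here and in the other comparisons, therefore describe the members and test nothing about Sox genes as a family. The 3 comparisons between E14.5 groups share libraries, so they are not independent of each other.

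**Figure D1:**
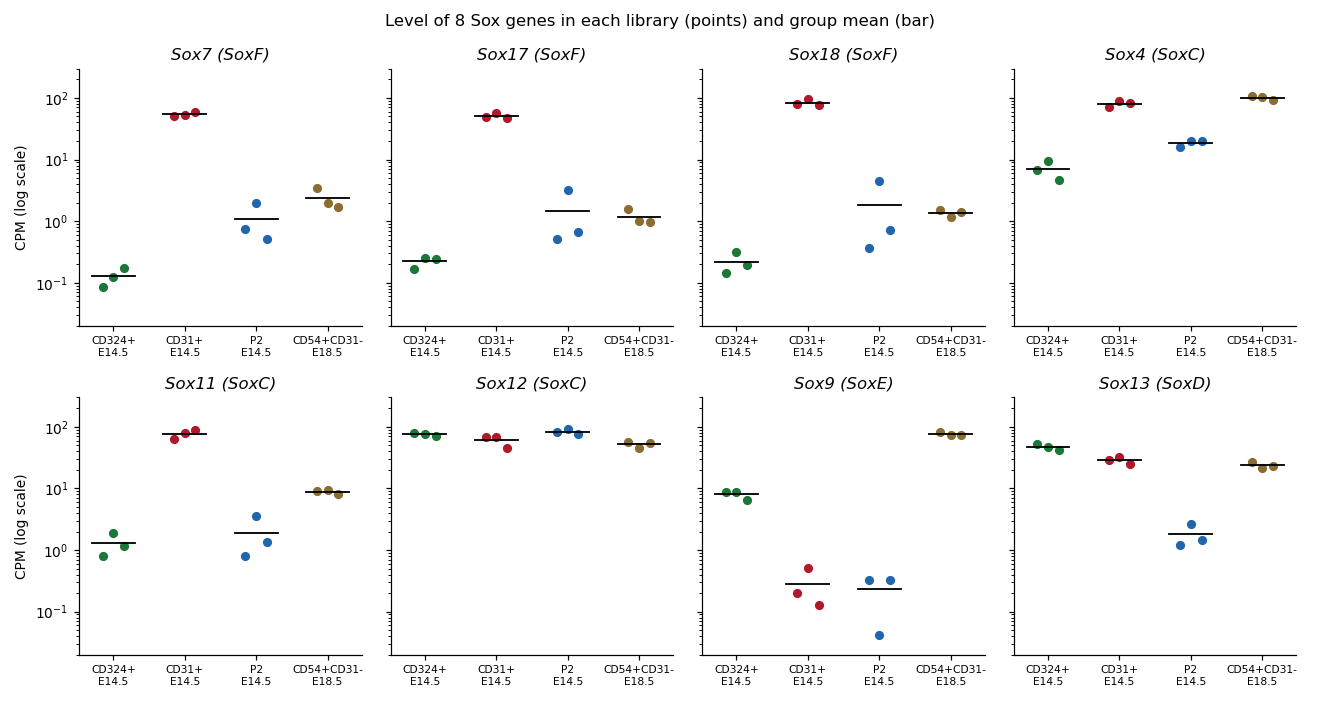
Level of each member in the 12 libraries, in CPM on a log axis; points are libraries in the order of their replicate numbers, bars the mean of 3 libraries. The 3 SoxF genes lie between 47.3 and 94.8 CPM in CD31+ libraries and below 4.5 CPM in all other libraries, while *Sox12* lies between 45.6 and 91.6 CPM in all 12.

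*Sox18*, a factor of vessel and lymphatic development, had 78.4, 94.8, and 75.5 CPM in the CD31+ libraries, replicates 1 to 3, and 0.142, 0.315, and 0.197 CPM in the CD324+ libraries. Its P2 libraries had 0.367, 4.43, and 0.732 CPM and its E18.5 libraries 1.52, 1.18, and 1.43 CPM. Every CD31+ library was therefore above every other library, and the ranges of P2 and E18.5 libraries overlapped. The mean was 82.9 ± 10.4 CPM (SD, n = 3) in CD31+ and 0.218 ± 0.0884 CPM (SD, n = 3) in CD324+ cells, with a log2 fold change of 8.57 (SE 0.858, edgeR adjusted p = 8.83e-06, the quasi-likelihood test with the Benjamini-Hochberg method over all genes).

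*Sox17*, which acts in endoderm, arterial endothelium, and fetal blood stem cells, had 48.2, 57.2, and 47.3 CPM in the CD31+ libraries. The CD324+ libraries had 0.170, 0.252, and 0.247 CPM, which corresponds to 6, 8, and 10 counts. Its level was 0.505, 3.25, and 0.655 CPM in P2 and 1.56, 0.996, and 0.969 CPM in E18.5 libraries, so those ranges overlapped as for *Sox18*. The log2 fold change between CD31+ and CD324+ cells was 7.81 (SE 0.691, edgeR adjusted p = 3.45e-06).

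*Sox7*, a further endothelial factor, had 50.9, 53.4, and 58.6 CPM in the CD31+ libraries and 0.0849, 0.126, and 0.173 CPM in the CD324+ libraries, the latter from 3, 4, and 7 counts. In P2 libraries it had 0.758, 1.96, and 0.520 CPM, and in E18.5 libraries 3.498, 1.94, and 1.69 CPM. Again every CD31+ library was above every other library, and the E18.5 and P2 ranges overlapped. The log2 fold change between CD31+ and CD324+ cells was 8.67 (SE 0.494, edgeR adjusted p = 1.22e-07).

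Per kilobase of exon, the SoxF transcripts of CD31+ cells were mostly *Sox18*. It made up 65.3% ± 2.40 (SD, n = 3) of the summed SoxF level, *Sox7* 21.1% ± 2.63 (SD, n = 3), and *Sox17* 13.6% ± 0.235 (SD, n = 3). The ranges of the 3 shares over the CD31+ libraries did not overlap, and the summed level was 78.3 ± 7.28 CPM per kilobase (SD, n = 3). In the E18.5 libraries the sum was 1.81 ± 0.443 CPM per kilobase (SD, n = 3), with 38.8% ± 6.77 from *Sox7* and 47.7% ± 7.45 from *Sox18* (SD, n = 3 each).

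The SoxF genes were low in P2 cells but lower still in CD324+ cells. The P2 level was above the CD324+ level for *Sox7* (log2 fold change 3.01, SE 0.598, edgeR adjusted p = 0.00108), *Sox17* (2.69, SE 0.769, adjusted p = 0.00964), and *Sox18* (3.08, SE 0.963, adjusted p = 0.0154). P2 replicate 2 set much of these sizes: without it the log2 fold changes were 2.25, 1.37, and 1.37, with edgeR adjusted p of 8.19e-05, 0.0012, and 0.00925. The call for *Sox18* was lost without CD324+ replicate 1 (2.87, edgeR adjusted p = 0.0508) or without CD324+ replicate 3 (3.01, adjusted p = 0.0502).

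Endothelial markers moved with the SoxF genes in these libraries. In P2 replicate 2, the median of the 10 endothelial markers was 4.23% of their CD31+ mean, and *Sox7*, *Sox17*, and *Sox18* were at 3.61%, 6.38%, and 5.35% of theirs. In P2 replicates 1 and 3 the marker median was 0.643% and 1.02%, and the SoxF genes ranged from 0.443% to 1.396%. CD324+ libraries had marker medians of 0.343% to 0.497% and SoxF genes at 0.156% to 0.495%. The part of endothelial RNA in the SoxF levels outside CD31+ cells was not tested, and in bulk samples fewer cells of a type and less RNA per cell cannot be told apart.

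**Figure D2:**
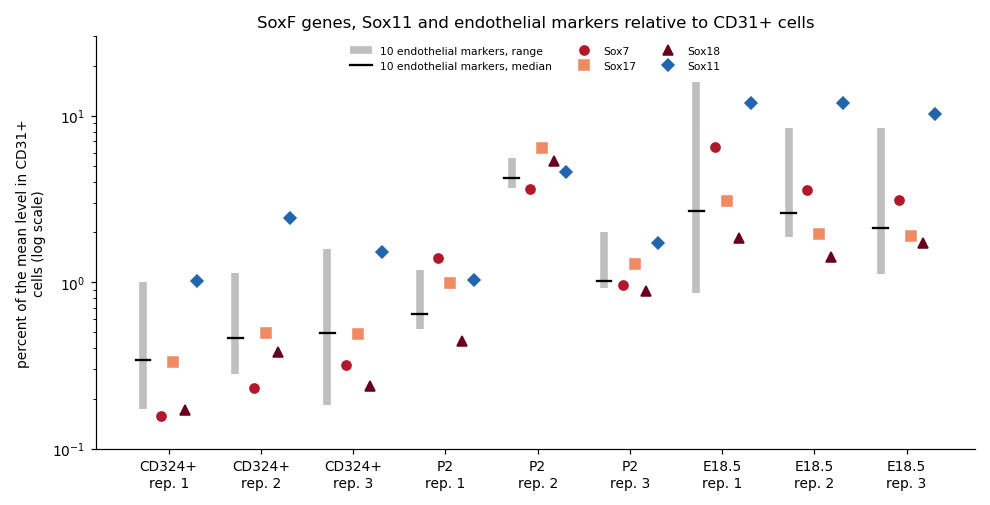
Level of *Sox7*, *Sox17*, *Sox18*, and *Sox11* in each library of the other groups, as a percentage of the mean level in CD31+ cells on a log axis; grey bars span 10 endothelial markers and black ticks mark their median. P2 replicate 2 has a marker median of 4.23%, against 0.643% and 1.02% in the other P2 libraries, and the 4 Sox genes are higher there too.

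Against CD31+ cells, all 3 SoxF genes were lower in P2 cells, with log2 fold changes of -5.66 for *Sox7* (SE 0.377), -5.12 for *Sox17* (SE 0.545), and -5.49 for *Sox18* (SE 0.662), and edgeR adjusted p of at most 2.74e-05. Without P2 replicate 2 these were -6.42, -6.44, and -7.20. In this comparison 6 of the 8 members were lower and 1 higher, where 39.4% of all genes tested were lower and 34.3% higher, and the median log2 fold change was -4.56 over the members and -0.13 over all genes.

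Genes that SoxF factors act on or with in vessels were largely high in the same group. Of 11 genes linked to SoxF factors as targets, 9 were higher in CD31+ than in CD324+ cells, where 31.7% of all genes tested were higher, among them the endothelial tight junction gene *Cldn5* (log2 fold change 8.09, SE 0.724, edgeR adjusted p = 3.75e-06), the Notch ligand gene *Dll4* (7.45, SE 0.601, adjusted p = 1.71e-06), and the guidance receptor gene *Robo4* (8.01, SE 0.865, adjusted p = 1.58e-05). The 2 that were lower were *Prox1* (-4.72, SE 0.159, edgeR adjusted p = 2.59e-09), which encodes a factor of lymphatic endothelium and of hepatoblasts, and the adhesion gene *Vcam1* (-1.48, SE 0.174, adjusted p = 2.98e-05). *Prox1* was at 298 ± 35.8 CPM in CD324+ and 11.4 ± 2.04 CPM in CD31+ cells (SD, n = 3 each). P2 cells had all 11 at lower levels than CD31+ cells did, in a comparison where 39.4% of all genes tested were lower. Of 7 partner genes of SoxF factors, 6 were higher in CD31+ than in CD324+ cells, including *Mef2c*, the gene of a MADS box factor that binds DNA with SOX18 (257 ± 9.23 against 7.77 ± 2.12 CPM, SD, n = 3 each). The seventh, *Ctnnb1*, the gene of beta-catenin, had 248 ± 28.4 and 283 ± 13.7 CPM (edgeR adjusted p = 0.0914). The target genes *Cdh5*, *Egfl7*, and *Kdr* are also among the 10 endothelial markers, and all 10 markers were higher in CD31+ than in CD324+ cells. Since CD31+ cells were sorted on an endothelial marker, these counts do not test an action of SoxF factors.

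The SoxC genes did not share a pattern. *Sox12* was at a like level in every group, *Sox4* was high in CD31+ and E18.5 cells, and *Sox11* was high in CD31+ cells. The bases just upstream of these 3 genes are shown because genes with such similar DNA-binding boxes differed in level. They are RefSeq promoter sequences on GRCm38.p6, limited to bases upstream of the annotated starts, 5′ to 3′ on the minus strand, and capitals mark each match to CCAAT, the letters bound by the factor NF-Y, or to GGGCGG, the letters bound by SP1, on either strand.
Sox4: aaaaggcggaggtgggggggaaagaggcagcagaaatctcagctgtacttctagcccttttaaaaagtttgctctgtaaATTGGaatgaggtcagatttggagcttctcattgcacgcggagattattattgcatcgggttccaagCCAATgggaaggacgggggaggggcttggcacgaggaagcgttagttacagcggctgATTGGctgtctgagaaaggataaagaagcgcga
Sox11: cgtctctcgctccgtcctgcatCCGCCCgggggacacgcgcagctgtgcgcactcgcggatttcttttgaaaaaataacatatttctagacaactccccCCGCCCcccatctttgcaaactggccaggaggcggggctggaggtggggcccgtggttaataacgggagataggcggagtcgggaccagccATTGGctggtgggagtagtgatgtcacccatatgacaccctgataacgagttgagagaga
Sox12: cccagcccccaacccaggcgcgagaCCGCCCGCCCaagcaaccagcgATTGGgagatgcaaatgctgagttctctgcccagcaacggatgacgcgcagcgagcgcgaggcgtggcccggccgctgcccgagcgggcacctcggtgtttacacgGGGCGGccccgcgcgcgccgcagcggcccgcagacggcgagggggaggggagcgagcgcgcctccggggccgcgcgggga
These stretches lie at chr13:28953714-28953949 (*Sox4*), chr12:27342719-27342968 (*Sox11*), and chr2:152398064-152398296 (*Sox12*). They hold 3 CCAAT matches for *Sox4*, 1 CCAAT and 2 GGGCGG matches for *Sox11*, and 1 CCAAT and 3 GGGCGG matches for *Sox12*, of which 2 overlap in 1 run of capitals. Over the whole 300-base window, which runs past the start, the counts were 4 CCAAT for *Sox4* and 4 GGGCGG for *Sox12*. Among the 32851 promoters of that length in the table, 37.4% hold CCAAT and 35.7% hold GGGCGG, so such matches are common. CpG dinucleotides numbered 10 in the 236 bases of *Sox4*, 17 in the 250 bases of *Sox11*, and 35 in the 233 bases of *Sox12*. *Sox13* was the only other member in the table, and its window held neither motif.

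*Sox4*, a SoxC factor active in progenitors of blood, heart, and other tissues, had 72.2, 89.1, and 82.0 CPM in the CD31+ libraries and 6.85, 9.60, and 4.74 CPM in the CD324+ libraries. P2 libraries had 16.2, 19.8, and 20.0 CPM and E18.5 libraries 107, 103, and 92.5 CPM. No 2 groups overlapped, and the order from high to low was E18.5, CD31+, P2, and CD324+. The log2 fold change was 3.52 between CD31+ and CD324+ cells (SE 0.227, edgeR adjusted p = 3.04e-07), 1.39 between P2 and CD324+ cells (SE 0.215, adjusted p = 0.000187), and -2.13 between P2 and CD31+ cells (SE 0.21, adjusted p = 6.2e-06). Leaving out P2 replicate 2 gave 1.36 between P2 and CD324+ cells (edgeR adjusted p = 0.000242), so the *Sox4* level of P2 cells kept its call without that library.

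*Sox11*, best known from developing neurons, had 64.3, 79.0, and 89.9 CPM in the CD31+ libraries and 0.792, 1.89, and 1.18 CPM in the CD324+ libraries. P2 libraries had 0.804, 3.58, and 1.33 CPM, so the library with the high endothelial sum was again the highest, and E18.5 libraries had 9.24, 9.29, and 8.004 CPM. P2 and CD324+ ranges overlapped, while the other groups stood apart. CD31+ cells exceeded CD324+ cells by 5.92 (log2, SE 0.495, edgeR adjusted p = 2.24e-06), and the P2 level was -5.36 from the CD31+ level (log2, SE 0.467, adjusted p = 2.52e-06), or -6.17 without P2 replicate 2. Between P2 and CD324+ cells the value was 0.57 (SE 0.499, edgeR adjusted p = 0.333), which became -0.25 without P2 replicate 2 (adjusted p = 0.537).

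*Sox12*, which is widely expressed in embryos, had 80.0, 77.6, and 70.3 CPM in the CD324+ libraries and 68.3, 68.0, and 45.6 CPM in the CD31+ libraries. The P2 libraries had 81.3, 91.6, and 76.0 CPM and the E18.5 libraries 57.6, 46.0, and 55.4 CPM. P2 overlapped with CD324+ cells and CD31+ with E18.5 cells, and the means differed by less than 2-fold across the 4 groups. Only the P2 against CD31+ comparison of E14.5 cells passed the test (log2 fold change 0.44, SE 0.151, edgeR adjusted p = 0.0221), and the call was lost in 3 of 18 other settings. These were the library factors of the authors (0.076, edgeR adjusted p = 0.685), at least 10 counts in every library (0.30, adjusted p = 0.0903), and the fit without P2 replicate 2 (0.37, adjusted p = 0.0575). Between CD31+ and CD324+ cells the value was -0.33 (SE 0.151, edgeR adjusted p = 0.0749), and with the replicate number as a block it was -0.35 and passed the test (adjusted p = 0.0202).

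The make-up of the SoxC group per kilobase of exon differed between groups. *Sox12* made up 91.4% ± 2.43 (SD, n = 3) of the summed SoxC level in CD324+ cells and 81.9% ± 2.12 (SD, n = 3) in P2 cells. In CD31+ cells *Sox4* made up 42.4% ± 2.70, *Sox12* 34.1% ± 6.78, and *Sox11* 23.5% ± 4.27 (SD, n = 3 each), and the range of *Sox12* overlapped with those of *Sox4* and *Sox11*. In E18.5 cells *Sox4* made up 61.9% ± 3.13 (SD, n = 3). The summed level was 18.7 ± 1.54 CPM per kilobase in CD324+, 22.8 ± 2.07 in P2, 39.9 ± 3.01 in CD31+, and 34.0 ± 2.10 in E18.5 cells (SD, n = 3 each).

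**Figure D3:**
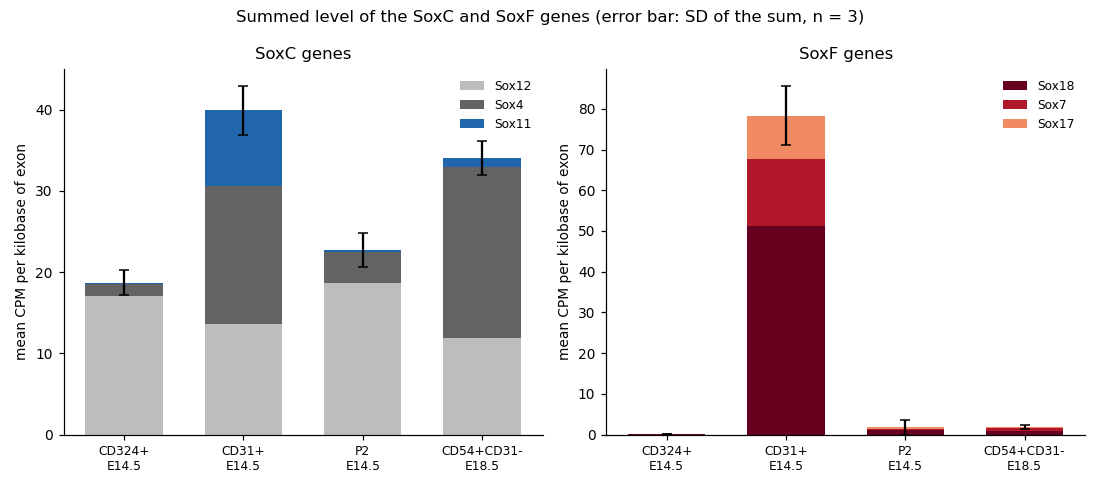
Mean level per kilobase of exon of the SoxC genes (left) and SoxF genes (right) stacked by gene for each group; error bars are the SD of the summed level over 3 libraries, cut at 0 for the SoxF genes in P2 cells, where the SD exceeds the mean. The SoxF sum is 78.3 CPM per kilobase in CD31+ cells and at most 1.81 in the others, while the SoxC sum lies between 18.7 and 39.9 in all 4 groups.

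The listed SoxC target genes were few and did not move as 1 group. Of 4, *Ezh2*, the gene of a Polycomb histone methyltransferase, exceeded its CD324+ level in P2 cells (log2 fold change 1.35, SE 0.0885, edgeR adjusted p = 2.98e-07), and *Tead2*, a TEA domain factor gene, was lower (-3.11, SE 0.262, adjusted p = 1.91e-06). Both were higher in CD31+ than in CD324+ cells. The neuronal genes *Tubb3* and *Dcx* were not tested at E14.5, with *Tubb3* at 0 counts in all 12 libraries and *Dcx* at most at 0.220 CPM.

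At E14.5 *Sox9* was higher in CD324+ cells than in both other groups, where it was low. This SoxE factor marks bile duct progenitors in the liver and is also expressed in cartilage and in the tips of the lung epithelium. Its CD324+ libraries had 8.83, 8.69, and 6.52 CPM, the CD31+ libraries 0.198, 0.517, and 0.127 CPM, and the P2 libraries 0.322, 0.0416, and 0.327 CPM. The latter 2 groups overlapped. *Sox9* was lower in CD31+ (log2 fold change -4.85, SE 0.574, edgeR adjusted p = 3.18e-05) and in P2 cells (-5.13, SE 0.595, adjusted p = 2.18e-05) than in CD324+ cells, and without CD31+ replicate 2 the first of these was -5.70. The difference of P2 from CD31+ cells was -0.28 (SE 0.645, edgeR adjusted p = 0.711), with both groups at 29 counts or fewer per library. In P2 replicate 2, where the SoxF genes were highest, *Sox9* had 2 counts.

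Genes expressed with *Sox9* in bile duct progenitors were lower in P2 than in CD324+ cells for 10 of 14, and none was higher, where 36.1% of all genes tested were lower and 33.8% higher. The Notch target gene *Hes1* was at 27.7 ± 2.85 CPM in CD324+ and 1.21 ± 0.576 CPM in P2 cells (SD, n = 3 each, log2 fold change -4.53, SE 0.329, edgeR adjusted p = 6.25e-07). The mature duct markers *Krt19* and *Epcam* were low in CD324+ cells, at 0.468 ± 0.331 and 1.25 ± 0.369 CPM (SD, n = 3 each). Of 13 cartilage genes, 10 were tested at E14.5, and 5 were lower in P2 than in CD324+ cells and none higher. Of all genes tested, 36.1% were lower and 33.8% higher. The median log2 fold change was -1.72 over these 10 genes and -0.01 over all genes. Cartilage genes were low in both groups, with the 13 summing to 18.75 to 25.2 CPM in CD324+ and 10.05 to 12.2 CPM in P2 libraries. *Col2a1* was at 0.609 ± 0.730 CPM in CD324+ cells (SD, n = 3), and *Matn3* had 0 counts in P2 libraries. The median therefore includes genes at few counts.

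*Sox13*, a SoxD factor, which lacks an activation domain of its own, was lower in P2 cells than in both other E14.5 groups. CD324+ libraries had 52.4, 46.7, and 42.3 CPM, CD31+ libraries 28.5, 32.9, and 24.5 CPM, and P2 libraries 1.22, 2.69, and 1.46 CPM. The E18.5 libraries had 27.1, 21.3, and 22.7 CPM. Every P2 library was below every other library, CD31+ and E18.5 ranges overlapped, and CD324+ libraries were highest. The log2 fold change was -4.73 between P2 and CD324+ cells (SE 0.266, edgeR adjusted p = 9.15e-08), -4.01 between P2 and CD31+ cells (SE 0.259, adjusted p = 3.37e-07), and -0.73 between CD31+ and CD324+ cells (SE 0.218, adjusted p = 0.0137).

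The TCF genes, whose products bind SOX13, were low in P2 cells as well. All 4 were lower in P2 than in CD324+ cells and than in CD31+ cells, where 36.1% and 39.4% of all genes tested were lower. Among them was *Tcf7l2* (11.2 ± 1.46 CPM in P2, 107 ± 21.9 CPM in CD324+, and 114 ± 17.0 CPM in CD31+ cells, SD, n = 3 each). Its log2 fold change was -3.28 between P2 and CD324+ cells (SE 0.185, edgeR adjusted p = 9.65e-08). *Tcf7l1* was at 5.14 ± 2.52 CPM in P2 and 74.0 ± 11.7 CPM in CD324+ cells (SD, n = 3 each).

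Counted over the members, P2 cells had 4 genes higher (*Sox4* and the SoxF genes) and 2 lower (*Sox9* and *Sox13*) than CD324+ cells. Of all genes tested, 33.8% were higher and 36.1% lower. The median log2 fold change was 0.98 over the members and -0.01 over all genes. P2 cells, whose libraries held the erythroid markers, thus had *Sox12* and, at a lower level, *Sox4* as the members above 5 CPM.

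**Figure D4:**
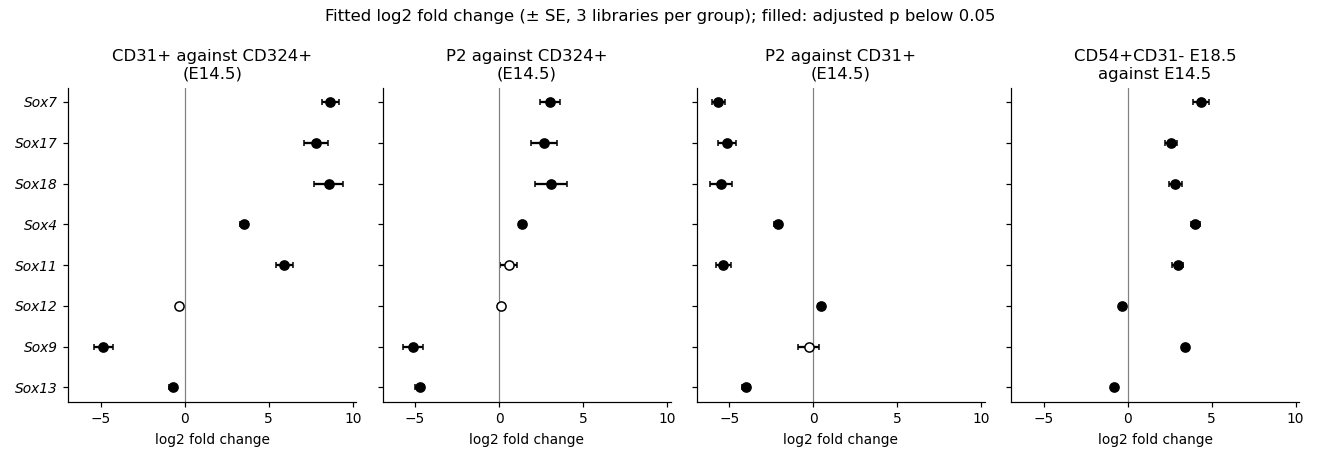
Fitted log2 fold change of each member in 4 comparisons, with its SE as the error bar (3 libraries per group); filled points passed an adjusted p below 0.05 and open points did not. *Sox7*, *Sox17*, and *Sox18* lie between 7.81 and 8.67 in CD31+ against CD324+ cells, and *Sox9* lies at -4.85 there and at 3.43 in CD54+CD31- cells at E18.5 against E14.5.

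CD54+CD31- cells at E18.5 had more *Sox9* and *Sox4* than those at E14.5, and the SoxF genes and *Sox11* were higher too, from a low level. All 8 members passed the test, 6 higher and 2 lower at E18.5, where 35.9% of the 15863 genes tested were higher and 33.5% lower. The median log2 fold change was 2.91 over the members and 0.03 over all genes. Fold changes here come from a fit of 6 libraries, and levels from a normalization over all 12, which shifts the median of all genes in this comparison by -0.19 on the log2 scale. All 10 genes of each of the lung epithelium, mesenchyme, and endothelial lists were higher at E18.5 as well, so age and the cell types sorted cannot be told apart in these values.

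*Sox9* had 81.6, 74.5, and 72.5 CPM at E18.5, all above the highest CD324+ library (8.83 CPM), with a log2 fold change of 3.43 (SE 0.161, edgeR adjusted p = 1.72e-05). *Sox4* had a log2 fold change of 4.03 (SE 0.271, edgeR adjusted p = 4.15e-05). Neither rested on replicate 1, without which the values were 3.37 (edgeR adjusted p = 1.81e-07) and 3.97 (adjusted p = 1.08e-06). The lung epithelium sum was 21880 CPM in replicate 1 and 9941 and 10130 CPM in the others.

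Biliary genes around *Sox9* were higher at E18.5 for 11 of 14, where 35.9% of all genes tested were higher, with *Prom1* lower. *Krt19*, a duct and lung keratin gene, was at 441, 248, and 244 CPM (log2 fold change 9.60, SE 0.575, edgeR adjusted p = 2.9e-05), and *Spp1*, the gene of osteopontin, at 133, 191, and 181 CPM (6.05, SE 0.442, adjusted p = 5.48e-05). Of 13 cartilage genes, 12 were tested, 5 were higher, a share near that of all genes, and *Hapln1*, the gene of a cartilage link protein, was lower (log2 fold change -1.01, SE 0.294, edgeR adjusted p = 0.0194). The fibrillar collagen gene *Col11a1* was among the higher ones (3.76, SE 0.212, edgeR adjusted p = 2.51e-05), while *Col2a1*, the main cartilage collagen gene, was at 0.459 ± 0.108 CPM (SD, n = 3). Many of these genes are expressed in lung epithelium or mesenchyme too, and the part of those cells in the *Sox9* level was not tested.

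*Sox7* gained 4.37 at E18.5 (log2, SE 0.473, edgeR adjusted p = 0.000241), *Sox17* 2.58 (SE 0.379, adjusted p = 0.000951), and *Sox18* 2.85 (SE 0.373, adjusted p = 0.000571). Without replicate 1 these were 3.95, 2.30, and 2.75, with edgeR adjusted p of at most 0.00131. In the E18.5 libraries *Sox7* was at 3.11% to 6.45% of its CD31+ mean, *Sox17* at 1.91% to 3.07%, and *Sox18* at 1.42% to 1.83%, beside endothelial marker medians of 2.10% to 2.69%. *Sox11* rose by 2.98 (log2, SE 0.308, edgeR adjusted p = 0.000198) and stood at 10.3% to 11.96% of its CD31+ mean, above the median of the endothelial markers in each of the 3 libraries.

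*Sox13* fell by 0.80 on the log2 scale at E18.5 (SE 0.146, edgeR adjusted p = 0.00249), and by 0.93 without replicate 1 (adjusted p = 0.000138). The *Sox12* value was -0.33 (SE 0.125, edgeR adjusted p = 0.0482), a call that held in 3 of 14 other settings, over which adjusted p ranged from 0.00852 to 0.567. Of the 4 TCF genes, *Lef1* and *Tcf7l1* were higher at E18.5 and *Tcf7* lower (log2 fold change -2.01, SE 0.17, edgeR adjusted p = 8.88e-05). Of all genes tested, 35.9% were higher and 33.5% lower.

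Among 16642 other genes, those closest to each member in their profile over the 12 libraries were ranked by the root mean square (RMS) difference of centred log2(CPM + 1) values. The libraries fall into 4 groups, so likeness here mostly means the same order of groups. *Sox17* was closest to *Bcl6b*, *Gja4*, and *Myct1* (RMS 0.136 to 0.248), *Sox18* to *Myct1*, *Klhl4*, and *She* (0.209 to 0.220), and *Sox7* to *Emcn*, *Elk3*, and *Kif26a* (0.214 to 0.234). *Sox18* ranked place 9 from *Sox17* with an RMS difference of 0.3, and *Sox17* place 10 from *Sox7* with 0.355. *Sox11* was closest to *Adgra2*, *Tro*, and *Nhsl2* (0.193 to 0.209) and *Sox4* to *Zdhhc1*, *Sfxn3*, and *Slc37a1* (0.316 to 0.391). *Sox9* was closest to *Vnn1*, *Cdcp1*, and *Patj* (0.2503 to 0.346), *Sox13* to *Zfp334*, *Ltbr*, and *Ano10* (0.182 to 0.214), and *Sox12* to *Setd3*, *Dcaf8*, and *Rab24* (0.106 to 0.126). *Bcl6b*, for example, had 68.2 CPM in CD31+ cells, 1.78 in P2, 0.312 in CD324+, and 1.59 in E18.5 cells, which is the order of the *Sox17* means. For *Sox17* the place of P2 above E18.5 came from P2 replicate 2 (3.25 CPM). Replicates 1 and 3, at 0.505 and 0.655 CPM, lay below every E18.5 library (0.969 to 1.56 CPM).

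The other 11 Sox genes were low or absent in every group except the SoxD genes *Sox5* and *Sox6*, partners of *Sox9* in cartilage. *Sox5* was at 258, 165, and 216 CPM in CD324+ libraries and lower in CD31+ cells (29.2 ± 4.86 CPM, SD, n = 3, log2 fold change -2.87, SE 0.192, edgeR adjusted p = 4.04e-07) and in P2 cells (17.2 ± 2.29 CPM, SD, n = 3, -3.65, SE 0.199, adjusted p = 7.41e-08). At E18.5 it had 121, 171, and 203 CPM (log2 fold change -0.19, SE 0.237, edgeR adjusted p = 0.503). Exons of *Sox5* share 1330 bases with the antisense gene *Sox5os1*, so its reads are uncertain. *Sox6*, which silences embryonic globin genes in red cell precursors, had 90.2 ± 7.35 CPM in P2 and 63.7 ± 18.6 CPM in CD324+ cells (SD, n = 3 each, edgeR adjusted p = 0.0905). CD31+ cells had 66.58 ± 19.97 CPM and E18.5 cells, the highest group, 95.95 ± 13.45 CPM (SD, n = 3 each). Groups next to each other in level overlapped in their ranges, and E18.5 exceeded CD324+ cells (log2 fold change 0.78, SE 0.215, edgeR adjusted p = 0.0156).

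*Sox2*, a factor of the airway epithelium and foregut, had 0 counts in all 9 E14.5 libraries and 91, 58, and 48 counts at E18.5. Its mean of 0.941 CPM there was at least 11.1-fold higher than in CD324+ cells, with the floor set at 3 counts per library. *Sox1* and *Sox14* had 0 counts in all 12 libraries and *Sox3* had 5 counts in 1 of them. *Sox8*, *Sox10*, *Sox15*, *Sox21*, and *Sox30* stayed below 0.75 CPM in every library. Of the 11 genes, 5 were tested at E14.5, and *Sox8* and *Sox30* were higher in CD31+ than in CD324+ cells, at 0.472 ± 0.132 and 0.529 ± 0.0668 CPM (SD, n = 3 each).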

How the data were processed

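Cells were sorted by the authors, who depleted ribosomal RNA by enzymatic treatment, prepared libraries with a stranded kit, aligned single-end reads to GRCm38, and counted reads per gene. The submitters' processing notes name cutadapt 1.11, STAR 2.5.0a, featureCounts 1.4.6-p3, R 3.5.1, and DESeq2. The authors deposited raw counts, used here for every test, and a score per gene, the count times 1 factor per library, rounded, used here only to read that factor. Strand and multimapping settings are not given in the sources used here.

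Tests used edgeR 4.0.16 in R 4.3.3 with filterByExpr, TMM normalization, and the quasi-likelihood test, and p-values were adjusted over all genes by the Benjamini-Hochberg method (threshold 0.05). One fit held the 9 E14.5 libraries and another the 6 CD54+CD31- libraries. SE is the absolute log2 fold change over the square root of F. Levels are CPM of the TMM-adjusted library size, mean ± SD, and exon lengths come from GENCODE vM21, which held 37932 of the 38127 identifiers. Alternatives were DESeq2 1.42.0, its size factors or the authors' factors in edgeR, other count filters, other sets of libraries, a replicate block, and each library left out. The test code was also run on simulated counts with few changed genes and the same spread for all genes. That setting is simpler than these data, so it does not measure error rates here. No replicates were duplicates (lowest chi-square per degree of freedom 39.9). Replicate numbers come from the labels. Deviations of same-numbered CD31+ and CD324+ libraries from their group means correlated at 0.334, 0.260, and 0.122 over 16643 genes, so the numbers may pair these 2 groups. The study states no pairing, and the main tests used no block. For this comparison too, the fit with the replicate number as a block is an alternative. The 3 libraries per group limit the precision, and counting error adds to it for genes at few counts. Genes named are the 8 members, the other Sox genes, list genes given as examples, and 3 profile neighbours per member. The members and gene lists were chosen with earlier results of these data known. Promoters of *Sox7*, *Sox9*, *Sox17*, and *Sox18* were not analysed here. The values of 1 listed gene are not reported here, and the gene still counts in its list.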

Additional observations from a re-analysis of the deposited data

How the results depend on the processing

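Over the log2 fold changes of single members, 505 of the values recomputed under other settings kept their direction and side of the threshold, 16 lost the call, 4 gained it, and 4 changed sign. With at least 10 counts required in every library, 2 members were called in P2 against CD324+ cells, 3 in P2 against CD31+ cells, 3 in CD31+ against CD324+ cells, and 4 at E18.5. This filter removes *Sox7*, *Sox17*, *Sox18*, and, at E14.5, *Sox9*, and *Sox12* lost its call in P2 against CD31+ cells (0.30) and at E18.5 (-0.19). The authors' library factors shifted the median log2 fold change of all genes by -0.262 in P2 against CD324+ cells, -0.369 in P2 against CD31+ cells, 0.107 in CD31+ against CD324+ cells, and 0.235 at E18.5. They moved the share of higher calls from 48.3% to 38.2% and from 46.6% to 33.9% in the 2 P2 comparisons, and *Sox12* in P2 against CD324+ cells changed from 0.11 to -0.15. With single libraries left out, *Sox9* in P2 against CD31+ cells ranged from -0.64 to 0.56 and *Sox11* in P2 against CD324+ cells from -0.25 to 0.91, none of them called. *Sox12* in CD31+ against CD324+ cells also gained the call without CD31+ replicate 1 (-0.43), CD31+ replicate 2 (-0.50), or P2 replicate 1 (-0.42).

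With the replicate block, 6 members were called in P2 against CD324+ cells and 7 in P2 against CD31+ cells, as without it. At E18.5 the block gave 7, with *Sox12* lost (-0.34). In these 3 comparisons the correlations of same-numbered libraries ranged from -0.0199 to 0.336, the highest in replicate 3 of P2 against CD31+ cells. These values do not settle whether the numbers pair the samples. In CD31+ against CD324+ cells, the block changed the call of *Sox12* and of no other member. Levels of 10 counts or fewer per library, such as the SoxF genes in CD324+ cells, are limited by depth.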

Other observations

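Of the embryonic globin genes that *Sox6* and its partner *Bcl11a* act on, *Hbb-y* had 93 to 590 counts per library at E14.5 and *Hbb-bh1* 9 to 44. *Bcl11a*, which encodes a repressor of embryonic globin genes, had 194 ± 8.72 CPM in P2 and 21.0 ± 4.31 CPM in CD324+ cells (SD, n = 3 each), and it was the 1 gene of this list of 3 that was higher in P2 cells. The embryonic globin genes *Hbb-y* and *Hbb-bh1* had 5.59 ± 4.28 and 0.520 ± 0.233 CPM in P2 cells (SD, n = 3 each). At E18.5 all 3 were lower than in CD324+ cells, with *Hbb-bh1* at 0 counts in the 3 libraries. Of all genes tested, 33.5% were lower, and of the 8 erythroid progenitor markers 5 were lower and 0 higher.

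The SoxF pattern at E18.5 differed among target genes. *Efnb2*, an arterial ligand gene, was at 48.99 ± 11.4 CPM at E18.5 and 2.13 ± 0.452 CPM in CD324+ cells (SD, n = 3 each), and reached 20.7% to 31.1% of its CD31+ mean, while *Cldn5* reached 1.42% to 2.81%. *Notch1* reached 14.5% to 16.4%, but it was already at 7.97% to 8.58% in CD324+ libraries (log2 fold change 1.06, SE 0.0999). Of the 11 target genes, 9 were higher at E18.5 than in CD324+ cells, and 2, *Prox1* and *Vcam1*, were lower. Of all genes tested, 35.9% were higher and 33.5% lower. The part of lung epithelium and mesenchyme in these levels was not tested.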
